A study of Mus musculus with 14 samples.

Results

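The cytosolic ribosomal protein genes are the nuclear genes for the proteins of the ribosome that translates most cellular messages. Members were taken by mouse gene symbol: Rpl or Rps followed by a number and an optional letter, plus Rplp0, Rplp1, Rplp2 and Rpsa, without pseudogene, Rps6k and Rps19bp symbols. The rule gave 82 of the 35275 genes in the deposited table, 32 for the small subunit and 50 for the large subunit. Of these, 81 reached 1 FPKM (fragments per kilobase of transcript, scaled to the depth of the library) in at least 3 libraries and were tested. The exception was Rpl10l, a retrogene copy of Rpl10, which was listed at 0 in every library. Rpl6l and Rps4l fit the rule by name although the reference annotation classes them as processed pseudogenes. The ribosomal proteins encoded by Rps3a1, Fau and Rack1 lie outside the rule and are described only beside the members.

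The libraries came from brown adipose tissue, the fat depot that makes heat through UCP1, of C57BL/6 mice aged 8 weeks. Both genotypes carried floxed Lrpprc alleles. Knockouts (LrpprcFF Ucp1-Cre) also carried a Cre transgene driven by the Ucp1 promoter, so deletion was directed to Ucp1-expressing cells, whereas controls (LrpprcFF) did not. Mice were housed at 22 °C (4 knockouts and 4 controls) or at 30 °C, which is thermoneutral for mice (3 and 3), and each library was made from a separate animal. RNA was taken from homogenized tissue, so other cell types of the depot contributed, and fewer cells of a type and less RNA per cell cannot be told apart. LRPPRC is an RNA-binding protein of mitochondria, and the members described here are products of nuclear genes.

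A cytosolic ribosome holds 1 copy of most of these proteins, with the acidic stalk proteins RPLP1 and RPLP2 present in more copies around RPLP0. Their messages start with a C and an unbroken run of pyrimidines, the 5′ terminal oligopyrimidine (TOP) motif, through which the kinase mTOR and the protein LARP1 control their translation and stability. Several members act outside the ribosome: RPL5 and RPL11 bind the p53 regulator MDM2, and RPS6 is the substrate after which the S6 kinases are named.

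Starts of transcription from RefSeq (build GRCm38.p6) could be matched for 60 of the 82 members. The stretches printed here run from 20 bases before the start to 20 bases from it, 5′ to 3′ on the coding strand, and capitals mark the pyrimidine run that begins at the start. The 5 shown first belong to members that fell at 22 °C in both genotypes, and the next 2 to members that fell in knockouts at 30 °C. The last 2 belong to members that rose at 22 °C, Rps27l in controls only, and have no run at the listed start. Pyrimidines do lie within a few bases of both of these starts. The 46 tested members without a run at the listed start had median log2 fold changes at 22 °C of -0.41 in controls and -0.40 in knockouts. None of those that fell is shown, so the stretches do not relate the run to direction.
Rpl35: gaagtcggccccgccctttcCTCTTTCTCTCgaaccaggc
Rpl28: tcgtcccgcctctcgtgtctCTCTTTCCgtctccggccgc
Rps10: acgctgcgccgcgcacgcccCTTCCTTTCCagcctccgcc
Rps6: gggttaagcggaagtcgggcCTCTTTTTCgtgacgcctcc
Rpl15: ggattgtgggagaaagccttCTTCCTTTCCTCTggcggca
Rplp2: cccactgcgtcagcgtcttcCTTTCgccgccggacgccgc
Rps27: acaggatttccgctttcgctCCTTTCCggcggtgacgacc
Rps27l: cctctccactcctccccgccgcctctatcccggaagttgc
Rpl39l: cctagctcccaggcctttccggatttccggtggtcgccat
In GRCm38.p6 these are chr2:39005112-39005151 (minus strand) for Rpl35, chr7:4792945-4792984 (plus) for Rpl28, chr17:27635225-27635264 (minus) for Rps10, chr4:86857348-86857387 (minus) for Rps6 and chr14:18270967-18271006 (minus) for Rpl15. Rplp2 lies at chr7:141447631-141447670 (plus), Rps27 at chr3:90213629-90213668 (minus), Rps27l at chr9:66946066-66946105 (plus) and Rpl39l at chr16:10170208-10170247 (plus). The run was 5 bases long in Rplp2, 7 in Rps27, 8 in Rpl28, 9 in Rps6, 10 in Rps10, 11 in Rpl35 and 13 in Rpl15. A C at the listed start followed by at least 4 pyrimidines was found in 13 of 60 members (21.7%) and in 3.01% of the 27025 genes in the table of starts. The letters CCGGAAG, the core recognised by ETS-family factors, stood on either strand of the 300-base window (250 bases before to 50 after the start) in 25 of 60 members (41.7%) and in 9.93% of all genes. The letters AAGATGGC, the core of the YY1 motif, stood in 5 of 60 members (8.33%) and in 3.19% of all genes. A listed start that is a few bases off removes a TOP match, so these shares describe the listed positions only.

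Lrpprc checked the labels: its FPKM in knockouts was 30.8% of the control mean at 22 °C and 27.0% at 30 °C, with ranges that did not overlap. Depth recovered from the FPKM steps was 15.8 to 21.4 M fragments per library. Members were compared after scaling each library to a median ratio over 10049 nuclear genes, as scaled FPKM, and fold changes are differences of log2(scaled FPKM + 1), which understates the change of weakly expressed genes. A gene was called at a Benjamini-Hochberg adjusted p under 0.05 over all 13079 genes tested with limma. In 2 libraries the members stood apart from their group. In control replicate 4 at 22 °C, 67 of 81 members lay above their own mean over the 14 mice, against 5 to 11 in the other 3 controls, and in knockout replicate 2 at 30 °C it was 22, against 71 and 72. Control replicates 3 and 4 at 22 °C carry identifiers with another first letter (R) than the other 12 animals (E), and no other label sets them apart.

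The members held a smaller share of nuclear transcripts at 22 °C than at 30 °C in both genotypes. Their summed FPKM was 4.87 ± 0.857% of the nuclear total in controls and 4.98 ± 0.153% in knockouts at 22 °C (SD, n = 4 each). At 30 °C it was 6.55 ± 0.129% in controls and 6.54 ± 0.848% in knockouts (SD, n = 3 each). The 22 °C control range of 4.28 to 6.12% ended below the 30 °C control range of 6.46 to 6.70%, and the knockout ranges of 4.77 to 5.11% and 5.65 to 7.34% did not meet either. Without the libraries that stood apart, the control share at 22 °C was 4.46% and the knockout share at 30 °C was 6.99%. The large-to-small subunit ratio of summed FPKM was 1.15 ± 0.0275 in 22 °C controls, 1.18 ± 0.00702 in 22 °C knockouts (SD, n = 4 each), 1.21 ± 0.00533 in 30 °C controls and 1.22 ± 0.0155 in 30 °C knockouts (SD, n = 3 each).

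**Figure D1:**
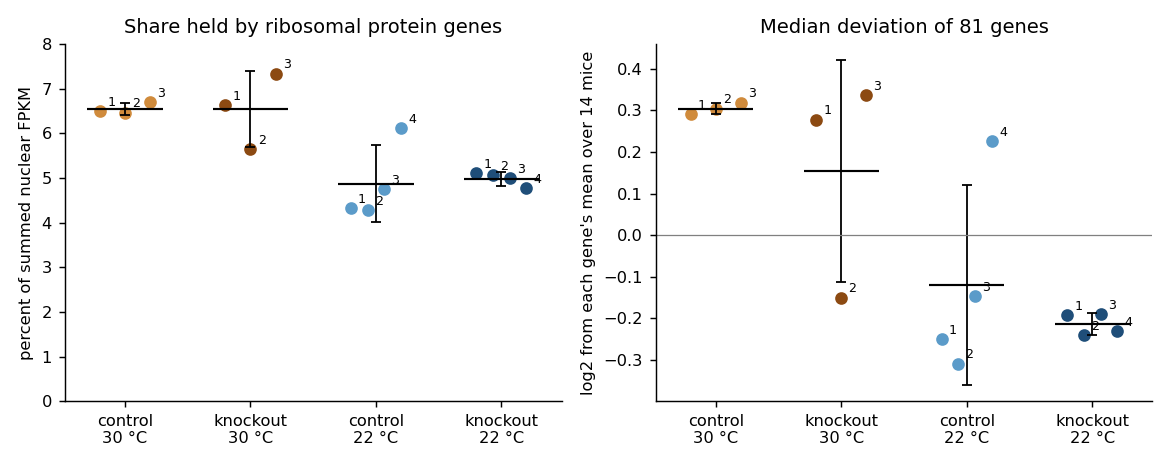
Left, percent of summed nuclear FPKM held by the 82 members in each mouse; right, median over 81 members of the log2 deviation from each member's mean over 14 mice. Points are mice with replicate numbers, lines are means and bars are SD; control replicate 4 at 22 °C (6.12%) and knockout replicate 2 at 30 °C (5.65%) lie away from their groups.

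FPKM is a level per length, so members can be ranked against each other on it, with less certainty for transcripts under 400 nt, among them Rps27 and Rpl36. The highest means over the 14 mice were 1006 FPKM for Rplp1, a stalk protein, 804 FPKM for Rps2, 696 FPKM for Rps27, 652 FPKM for Rps14 and 642 FPKM for Rpl36. Among members with any value, the lowest were Rpl24 (1.11 FPKM), Rpl6l (1.40 FPKM), Rpl39l (2.41 FPKM), Rpl23a (15.1 FPKM) and Rps15a (23.7 FPKM). Rpl24, Rpl23a and Rps15a are ordinary subunits and not tissue-restricted paralogs. Reads shared with near-identical pseudogenes can be split or dropped in counting, so the levels of single members are uncertain. The table held 248 pseudogenes named after members. They made up 27.5% of the summed FPKM of Rpl23a and its pseudogenes, 10.6% for Rpl10a, 9.82% for Rpl38, 8.86% for Rps19 and 8.41% for Rps15a, whereas none named after Rpl24 was listed. Within groups the members varied about as much as other genes: the median pooled SD of log2 values was 0.197 for the 81 members, 0.206 for all 13079 genes and 0.200 for 1219 other genes with a mean of at least 50 FPKM. The smallest was 0.112 for Rpl7a and the largest 1.67 for Rpl3l, the striated-muscle paralog of Rpl3.

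The comparison of 22 °C with 30 °C asked which members differ between the housing temperatures, which also separate the animals by sex-linked expression, as described below. In controls 45 of 81 members were lower at 22 °C, beside a background of 20.6% of all genes called lower, and 2 were higher, beside 18.2% of all genes. In knockouts 40 of 81 were lower, beside 29.4% of all genes, and 2 were higher, beside 21.8%. The median log2 fold change of the members was -0.43 in controls and -0.42 in knockouts, a ratio of 0.740 and 0.749, beside -0.05 and -0.07 over all genes tested. The 2 comparisons share no animal, but they share each gene's estimate of the spread, which came from all 14 libraries. The genes lower in both numbered 36, which is 80% of those lower in controls and 90% of those lower in knockouts, and no member was called in opposite directions. Over all genes tested 16.8% were lower in both, which is 81.9% of those lower in controls and 57.3% of those lower in knockouts, so the share of control calls repeated in knockouts was near the background.

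Every 22 °C animal lay below every 30 °C animal for 44 members in controls, beside 23.6% of all genes, and for 37 in knockouts, beside 31.7%. Neither genotype gave a call for 29 of the 81 members. The split by subunit was 16 of 32 small-subunit and 29 of 49 large-subunit members lower in controls, and 16 and 24 lower in knockouts. Without control replicate 4 at 22 °C, 64 members were lower in controls (median -0.56), and without knockout replicate 2 at 30 °C, 54 were lower in knockouts (median -0.52). Without knockout replicate 1 or 3 at 30 °C, 27 and 25 were lower in knockouts. Leaving out any 1 of the 30 °C controls, or control replicate 1 or 2 at 22 °C, left 28 to 31 lower in controls. With both libraries that stood apart left out, 68 and 62 were lower. No share of all genes is given beside the counts of these fits or beside the 29 members without a call.

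**Figure D2:**
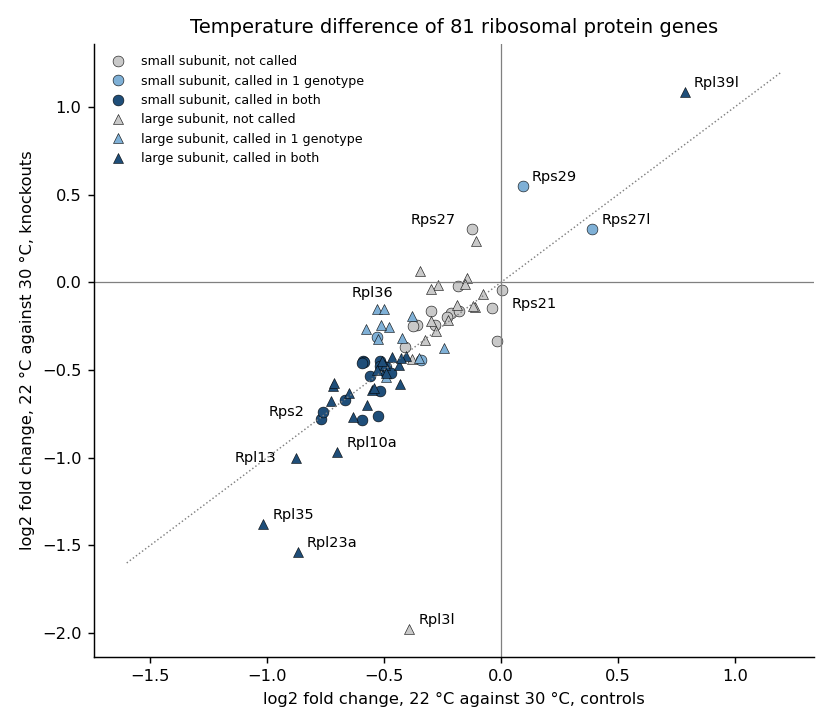
Log2 fold change of 22 °C against 30 °C for the 81 tested members, controls on the horizontal and knockouts on the vertical axis; circles are small-subunit and triangles large-subunit members, colour gives the number of genotypes with an adjusted p under 0.05, and the dotted line marks equal change. Most members lie below 0 on both axes, 36 called lower in both, and Rpl39l is the member called higher in both.

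Other measures moved with housing temperature in the same libraries. All 6 mice at 30 °C had 9.71 to 15.3 scaled FPKM of Xist, an RNA of the inactive X chromosome, and all 8 at 22 °C had at most 0.0139, while the Y-linked Ddx3y was at 16.3 to 23.9 at 22 °C and at most 0.0242 at 30 °C. These are the values of female mice at 30 °C and of male mice at 22 °C, although the labels give no sex. Both genes split the animals exactly by housing temperature. Temperature and sex-linked expression therefore cannot be told apart in these comparisons. The summed scaled FPKM of 12 macrophage markers was 62.6 to 95.6 in 22 °C controls, 107 to 246 in 22 °C knockouts, 137 to 501 in 30 °C controls and 734 to 2216 in 30 °C knockouts, with 8 of 12 lower at 22 °C in controls and all 12 in knockouts. The sums were also higher at 30 °C for 10 T cell markers, at 2.04 to 5.49 in 22 °C controls and 8.45 to 33.9 in 30 °C controls. For 10 B cell markers they were 5.79 to 12.3 and 17.3 to 22.5, for 10 endothelial markers 223 to 516 and 499.9 to 552, and for 8 fibroblast markers 181 to 231 and 246 to 276 in the same groups. In knockouts at 22 °C and 30 °C the sums were 3.53 to 5.45 and 7.43 to 51.1 for T cell, 5.01 to 8.84 and 14.6 to 71.9 for B cell, 254 to 364 and 871 to 955 for endothelial, and 149 to 293 and 435 to 861 for fibroblast markers. The markers called lower at 22 °C in controls and in knockouts were 5 and 8 of 9 tested for T cells, 1 and 4 of 4 for B cells, 4 and 3 of 10 for endothelial cells and 1 and 6 of 7 for fibroblasts. The endothelial sums do not stand for each marker. Among the 10, the log2 fold change at 22 °C ran from -2.64 to 0.19 in controls (median -0.55) and from -4.48 to 0.42 in knockouts (median -0.36). No marker of these lists was at 0 in every library. In control replicate 4 at 22 °C the endothelial sum was 516, against 223 to 271 in the other 22 °C controls. Knockout replicate 2 at 30 °C had the lowest macrophage, T cell, B cell and fibroblast sums of its group, but not the lowest endothelial sum. These are the libraries whose members stood apart. The part of these cell types in the members' difference was not tested.

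Among small-subunit proteins, Rps2, an RNA-binding protein near the messenger entry site, was at 623, 517, 636 and 696 scaled FPKM in 22 °C controls and 1066, 1085 and 978 in 30 °C controls. In knockouts it was at 660, 593, 615 and 564 at 22 °C and 994, 901 and 1165 at 30 °C. The temperatures did not overlap in either genotype. Rps2 fell by 0.76 on the log2 scale in controls (SE 0.13, limma adjusted p = 0.00102) and by 0.74 in knockouts (SE 0.13, limma adjusted p = 0.000479). Rps15, a protein of the small-subunit head, fell by 0.77 and 0.78 on the log2 scale (limma adjusted p = 0.00354 and 0.00185). Rps10, another protein of the head, fell by 0.67 in both genotypes. Rps16 fell by 0.53 in controls and 0.76 in knockouts. Rps3, which lines the messenger entry channel, fell by 0.56 and 0.53.

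Among large-subunit proteins, Rpl35 was lowest in relation to 30 °C in controls. It was at 13.2, 25.8, 19.3 and 18.5 scaled FPKM in 22 °C controls and 38.0, 39.5 and 38.9 in 30 °C controls. In knockouts the values were 20.2, 13.6, 16.7 and 15.1 at 22 °C and 56.2, 31.8 and 47.0 at 30 °C. No 22 °C animal reached any 30 °C animal of its genotype. Rpl35 fell by 1.02 in controls (SE 0.21, limma adjusted p = 0.00317) and by 1.38 in knockouts (SE 0.21, limma adjusted p = 0.000264). RPL35 and RPL23A sit together at the exit of the peptide tunnel. Rpl23a was at 8.47 to 13.8 scaled FPKM in 22 °C controls (median 9.64) and 18.3 to 21.3 in 30 °C controls (median 19.0). In knockouts it was at 5.48 to 9.13 (median 8.56) and 20.3 to 28.8 (median 25.4), again without overlap. It fell by 0.87 in controls (limma adjusted p = 0.00321) and by 1.54 in knockouts (limma adjusted p = 6.56e-05), with the pseudogene reads named above as a limit.

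Rpl13 was at 123, 121, 159 and 187 scaled FPKM in 22 °C controls and 272, 266 and 262 in 30 °C controls. In knockouts it was at 148, 135, 151 and 129 against 326, 214 and 323. Control replicate 4 and knockout replicate 2 were the animals nearest to the other temperature, and the groups did not overlap. Rpl13 fell to 0.545 of the 30 °C level in controls (limma adjusted p = 0.00231) and to 0.499 in knockouts (limma adjusted p = 0.000501). Rpl10a, a protein of the L1 stalk, fell by 0.70 in controls (limma adjusted p = 0.0048) and 0.97 in knockouts (limma adjusted p = 0.000383). Rpl27a was at 108 to 149 scaled FPKM in 22 °C controls and 186 to 216 in 30 °C controls, and had the smallest p among members in controls (log2 fold change -0.72, SE 0.11, limma adjusted p = 0.000816). In knockouts it fell by 0.59 (limma adjusted p = 0.00103). Rpl3, which lies near the peptidyl transferase centre, fell by 0.51 in controls (limma adjusted p = 0.00299) and 0.45 in knockouts (limma adjusted p = 0.00349).

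**Figure D3:**
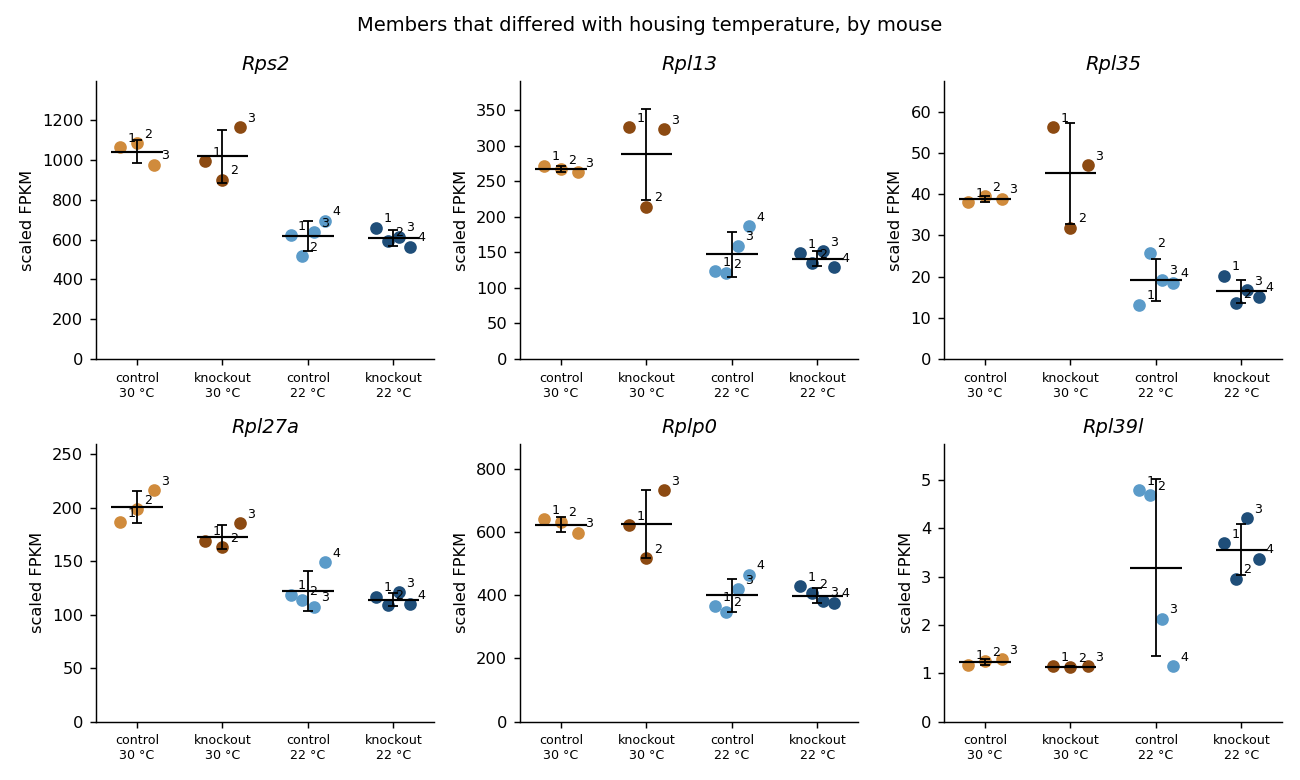
Scaled FPKM of 6 members in each mouse by group; points are mice with replicate numbers, lines are means and bars are SD. In Rps2, Rpl13, Rpl35, Rpl27a and Rplp0 all 22 °C mice lie below all 30 °C mice of their genotype, whereas Rpl39l is higher at 22 °C except in control replicate 4, at 1.15 scaled FPKM.

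The stalk recruits the GTPases of translation. Its base protein Rplp0 was at 365, 348, 420 and 464 scaled FPKM in 22 °C controls and 640, 633 and 597 in 30 °C controls. In knockouts it was at 429, 407, 382 and 376 against 622, 518 and 733. It fell by 0.65 in controls (limma adjusted p = 0.00281) and 0.63 in knockouts (limma adjusted p = 0.00174), and the temperatures did not overlap. Rplp1 fell by 0.53 in controls (limma adjusted p = 0.0229), and its knockout log2 fold change of -0.32 did not pass (limma adjusted p = 0.114). Rplp2 fell by 0.50 in controls (limma adjusted p = 0.0372) and gave -0.15 in knockouts (limma adjusted p = 0.484).

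Of 8 members used as reference transcripts in quantitative PCR, 5 were called lower at 22 °C in controls and 4 in knockouts. Beside these stand 45 and 40 of all 81 members, and 20.6% and 29.4% of all genes. The 8 were thus called about as often as the members at large. Rplp0, Rps3, Rpl13a and Rpl4 were called in both genotypes. Rpl13a fell by 0.55 in controls and 0.61 in knockouts (limma adjusted p = 0.00992 and 0.00354), and Rpl4 fell by 0.43 in both (0.0165 and 0.0112). Rpl27 fell by 0.48 in controls (limma adjusted p = 0.0276) and gave -0.25 in knockouts (0.19). The log2 fold changes of Rps18 were -0.41 and -0.37 (limma adjusted p = 0.0603 and 0.073), and those of Rpl32 were -0.38 and -0.44 (0.104 and 0.0549). Rps29 gave 0.09 in controls (limma adjusted p = 0.61), which was -0.01 with FPKM as deposited, and it rose in knockouts. Leaving out control replicate 4 at 22 °C or knockout replicate 2 at 30 °C brought Rps18 and Rpl32 past the threshold in knockouts, and Rpl27 gave -0.41 in knockouts without the latter (limma adjusted p = 0.0419). Without 22 °C control replicate 4, Rps18 was -0.56 and Rpl32 -0.52 in controls (limma adjusted p = 0.0053 and 0.0185). Rpl27 lost its control call when any of 5 of the 7 control animals was left out (limma adjusted p 0.0643 to 0.0804). Rpl4 lost its call without 30 °C control replicate 1 or 22 °C control replicate 2 in controls, and without knockout replicate 1 or 3 at 30 °C in knockouts (limma adjusted p 0.0505 to 0.0644).

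Members with roles outside the ribosome did not share 1 pattern. Rps6 fell by 0.49 in controls and 0.48 in knockouts (limma adjusted p = 0.00428 and 0.00285), from 215 to 232 scaled FPKM in 30 °C controls to 147 to 184 in 22 °C controls. Rpsa, also known as the laminin receptor precursor, fell by 0.60 and 0.46 (limma adjusted p = 0.0128 and 0.0313). Rpl5 and Rpl11, the MDM2-binding pair, fell in knockouts by 0.43 and 0.38 (limma adjusted p = 0.0213 and 0.038), and their control values of -0.35 and -0.24 did not pass (0.0639 and 0.179). Rps19, the gene most often mutated in Diamond-Blackfan anaemia, gave -0.30 and -0.16 (limma adjusted p = 0.125 and 0.372). Rps27a, which encodes a ubiquitin fused to a ribosomal protein, gave -0.04 and -0.15 (0.858 and 0.423). Of the 4 X-linked members, Rpl10 was called lower in both genotypes (-0.43 and -0.58) and Rps4x in knockouts (-0.45). Rpl36a and Rpl39 were called in neither, with -0.30 and -0.28 in controls.

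The members that rose at 22 °C were few. Rpl39l, a paralog of Rpl39 best known from male germ cells, was at 4.79, 4.69, 2.13 and 1.15 scaled FPKM in 22 °C controls and 1.18, 1.25 and 1.29 in 30 °C controls. In knockouts it was at 3.70, 2.96, 4.21 and 3.37 at 22 °C and 1.15, 1.13 and 1.15 at 30 °C. In knockouts the temperatures did not overlap, and in controls replicate 4 lay below all 30 °C animals. Rpl39l rose by 0.79 in controls (SE 0.27, limma adjusted p = 0.0364) and by 1.08 in knockouts (SE 0.27, limma adjusted p = 0.00526). Its knockout call held in all 27 alternative analyses that tested it. Its control call was lost in 8 of them, among them those without any 1 of the 30 °C controls or without control replicate 1 or 2 at 22 °C (0.59 to 0.80, limma adjusted p 0.0749 to 0.103). Rps27l, a p53-regulated paralog of Rps27, rose by 0.39 in controls (limma adjusted p = 0.0371), and its knockout value of 0.30 did not pass (0.0785). Its control call was lost in 11 of 28 alternatives, among them those without 30 °C control replicate 1 or 3 or 22 °C control replicate 1, 2 or 4, and the GC and length correction gave 0.12. Control replicate 3, at 151 scaled FPKM, lay within the 30 °C range of 130 to 156.

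Rps29, a small zinc-binding protein, rose in knockouts from 427, 322 and 367 scaled FPKM at 30 °C to 595, 494, 616 and 470 at 22 °C. The groups did not overlap (log2 fold change 0.55, SE 0.13, limma adjusted p = 0.00457). Rps29 is among the 6 members with transcripts under 400 nt in the reference, with Rpl36, Rpl38, Rps21, Rps27 and Rps28. The median log2 fold change of these 6 was 0.10 in knockouts and -0.12 in controls, against -0.43 and -0.47 for the 75 longer members. Of the 6, Rps28 was called lower in both genotypes (-0.59 and -0.45) and Rpl36 in controls (-0.53), while Rps27 gave -0.12 in controls and 0.30 in knockouts and was called in neither. Short transcripts are near the fragment length of a library, which makes their FPKM depend on how length was corrected, and the part of this in their difference was not tested.

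Temperature differences also moved with base composition. Across the 81 members the Spearman correlation of the log2 fold change with transcript GC content was -0.38 in controls and -0.38 in knockouts, and with transcript length -0.22 and -0.42. Across 13014 genes the correlation with GC content was -0.57 and -0.49, and with transcript length it had the other sign, 0.16 and 0.11. These are descriptions of points that share the same libraries. After a correction for GC content and transcript length, 29 members were lower and 1 higher in controls (median -0.30), and 24 were lower and 8 higher in knockouts (median -0.21). With it Rps2, Rplp0 and Rpl13a no longer passed in knockouts (-0.24, -0.21 and -0.24), nor did Rpl13a (-0.22) and Rpl27 (-0.34) in controls. Members with and without a pyrimidine run at the start had the same median in controls, -0.41 for 13 and -0.41 for 46, and -0.32 and -0.40 in knockouts.

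Genes that work with the ribosome were counted over lists chosen for this tissue. Of all genes tested, 18.2% were higher and 20.6% lower at 22 °C in controls, and 21.8% and 29.4% in knockouts. The counts of the elongation, initiation and biogenesis lists were near or below these shares. Outside the rule, the ribosomal protein genes Rack1 (-0.62), Fau (-0.65) and Rps3a1 (-0.45) were called lower at 22 °C in controls, and so they were in knockouts (-0.65, -0.72 and -0.37). Of 15 elongation factors and other TOP messages, 2 were lower and 0 higher in controls, and 4 lower and 1 higher in knockouts. The translocase Eef2 fell by 0.59 in controls and 0.56 in knockouts (limma adjusted p = 0.00129 and 0.000766), and Eef1g, a subunit of the elongation factor complex, by 0.42 and 0.47 (0.0271 and 0.0118). Of 38 initiation factors, 7 were higher and 6 lower in controls and 7 and 7 in knockouts. Eif6, a factor that keeps the subunits apart, fell by 0.48 and 0.66, and Eif4g2, a relative of the cap-binding scaffold, rose by 0.86 and 0.70. Of 61 genes of ribosome biogenesis and RNA polymerase I, 6 were higher and 7 lower in controls (median -0.01) and 14 and 8 in knockouts (median -0.02). Ipo7, an importer of ribosomal proteins into the nucleus, rose by 1.15 and 1.18, and Rrp9, a small nucleolar RNA-binding protein, fell by 0.78 and 0.74.

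Among 32 regulators of ribosomal protein messages and protein synthesis, 8 were higher and 3 lower at 22 °C in controls, beside 18.2% and 20.6% of all genes. In knockouts 6 were higher and 5 lower, beside 21.8% and 29.4%. The S6 kinase gene Rps6kb1 rose by 0.84 and 0.73 (limma adjusted p = 0.000422 and 0.000295) and Mtor by 0.70 and 1.54 (0.0179 and 0.00012). Myc, a transcription factor that drives ribosome production, fell by 1.23 and 1.84 (limma adjusted p = 0.0156 and 0.00104), and Trp53, the gene for p53, by 0.97 and 0.89 (0.00184 and 0.00153). Of 6 small nucleolar RNA host genes tested, 0 were called in controls and 1 was lower in knockouts.

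Mitochondrial ribosomal proteins, which build the separate ribosome of mitochondria, had medians of the other sign. Of 79 tested, 19 were higher at 22 °C in controls, not far above the 18.2% of all genes. In controls 6 were lower, beside 20.6% of all genes (median 0.12). In knockouts 38 were higher, beside 21.8% of all genes, and 2 were lower, beside 29.4% (median 0.29). Mrpl50 rose by 0.95 in controls and 0.96 in knockouts (limma adjusted p = 0.00109 and 0.000416), and Mrps33 by 0.62 and 0.91 (0.0025 and 0.000134). The difference between the 2 lists was not tested. The summed scaled FPKM of 11 brown adipocyte markers was 15570 to 20920 in 22 °C controls, 12180 to 15870 in 22 °C knockouts, 11180 to 13880 in 30 °C controls and 6174 to 8127 in 30 °C knockouts. Of the 11 markers, 6 were called higher and 2 lower at 22 °C in controls, and 8 higher and 1 lower in knockouts. The part of brown adipocytes in either list was not tested.

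**Figure D4:**
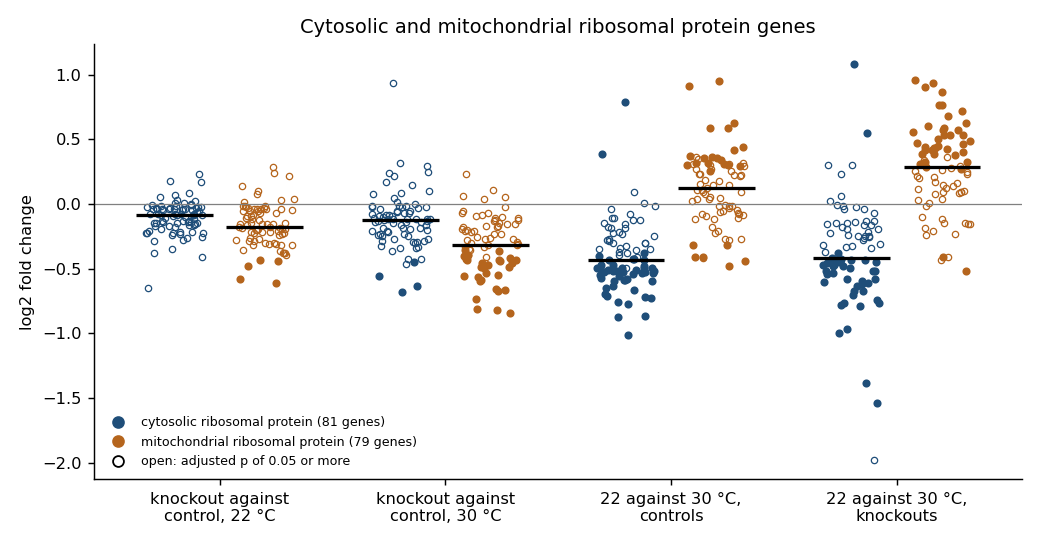
Log2 fold change of 81 cytosolic (blue) and 79 mitochondrial (brown) ribosomal protein genes in 4 comparisons; each point is a gene, filled where the adjusted p was under 0.05, and bars are medians. The cytosolic medians are -0.43 and -0.42 for temperature and the mitochondrial ones 0.12 and 0.29, while in knockouts at 30 °C 30 mitochondrial and 4 cytosolic genes were lower.

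Knockouts and controls at 22 °C were compared to ask whether loss of Lrpprc moves the members in animals that make heat. At an adjusted p under 0.05, 0 of 81 members differed with limma, beside a background of 1.97% of all genes. At an unadjusted p under 0.05 there were 2, both lower, Rpl11 (-0.38, limma adjusted p = 0.164) and Rps27l (-0.41, limma adjusted p = 0.12), beside 15.8% of all genes in either direction. The median log2 fold change was -0.09 and 71 of 81 values lay below 0, but the median was 0.02 without control replicate 4 and 0.21 with FPKM as deposited, where the median over all genes moved to 0.24. Every knockout lay below every control for 1 member, Rpl11, beside 4.53% of all genes. Rpl11 was at 267, 250, 294 and 263 scaled FPKM in knockouts and 329, 303, 331 and 449 in controls. No direction held for the members as a group in this comparison.

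At 30 °C the same comparison gave 4 members lower in knockouts, beside 5.28% of all genes called lower, and 0 higher, beside 8.82%. Every knockout lay below every control for 25 members, beside 14.6% of all genes. The median over the members was -0.12, beside 0.06 over all genes tested, and it was 0.00 without knockout replicate 2. With FPKM as deposited 5 members were higher and 0 lower (median 0.17, beside 0.31 over all genes). With quantile normalization 3 were higher and 1 lower. The sign of the members' median therefore depended on the scaling. The members' median lay below that of all genes both as scaled here and with FPKM as deposited. Mitochondrial transcripts held 21.8 to 28.5% of summed FPKM in controls and 2.04 to 5.34% in knockouts over both temperatures. Their part in these medians was not tested. Leaving out any 1 of the 6 animals at 30 °C left 1 or 2 members called, and leaving out control replicate 4 at 22 °C, which shares the estimate of the spread, gave 7. The share of the nuclear total, 6.55% in controls and 6.54% in knockouts, differed by less than the SD of either group.

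The 4 called members were Rps29, Rps27, Rplp2 and Rpl9. Rps29 was at 427, 322 and 367 scaled FPKM in knockouts and 542, 682 and 563 in controls. All knockouts lay below all controls, at a ratio of 0.624, or -0.68 on the log2 scale (SE 0.14, limma adjusted p = 0.00895). That call held in 27 of 28 alternatives and was lost with FPKM as deposited (-0.38, limma adjusted p = 0.05). Rps27, a zinc-finger protein of the small subunit, was at 584, 444 and 640 in knockouts and 852, 783 and 795 in controls, again without overlap (log2 fold change -0.56, SE 0.15, limma adjusted p = 0.0227). Rps27 lost its call in 10 of 28 alternatives, among them the fits without knockout replicate 1 or 2 or without any 1 of the 30 °C controls (limma adjusted p 0.0512 to 0.0808), and with quantile normalization it was -0.17.

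Rplp2, an acidic stalk protein, was at 548, 430 and 526 scaled FPKM in knockouts and 748, 789 and 788 in controls. It fell by 0.63 on the log2 scale (SE 0.19, limma adjusted p = 0.0379), a call lost in 11 of 28 alternatives, among them those without any 1 of the 6 animals at 30 °C (limma adjusted p 0.07 to 0.108). The partner proteins of the stalk gave -0.12 (Rplp1, limma adjusted p = 0.712) and -0.01 (Rplp0, 0.967). Rpl9 was at 122, 92.1 and 122 in knockouts and 146, 147 and 162 in controls (log2 fold change -0.45, SE 0.13, limma adjusted p = 0.0429), and lost its call in 20 of 28, among them the fits without any 1 of the 6 animals at 30 °C (limma adjusted p 0.0632 to 0.136). Rps29 and Rps27 belong to the 6 short members, whose median was -0.40 against -0.12 for the 75 others. The macrophage sums given above differed between these groups too, with 11 of 12 markers higher in knockouts, and their part was not tested.

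**Figure D5:**
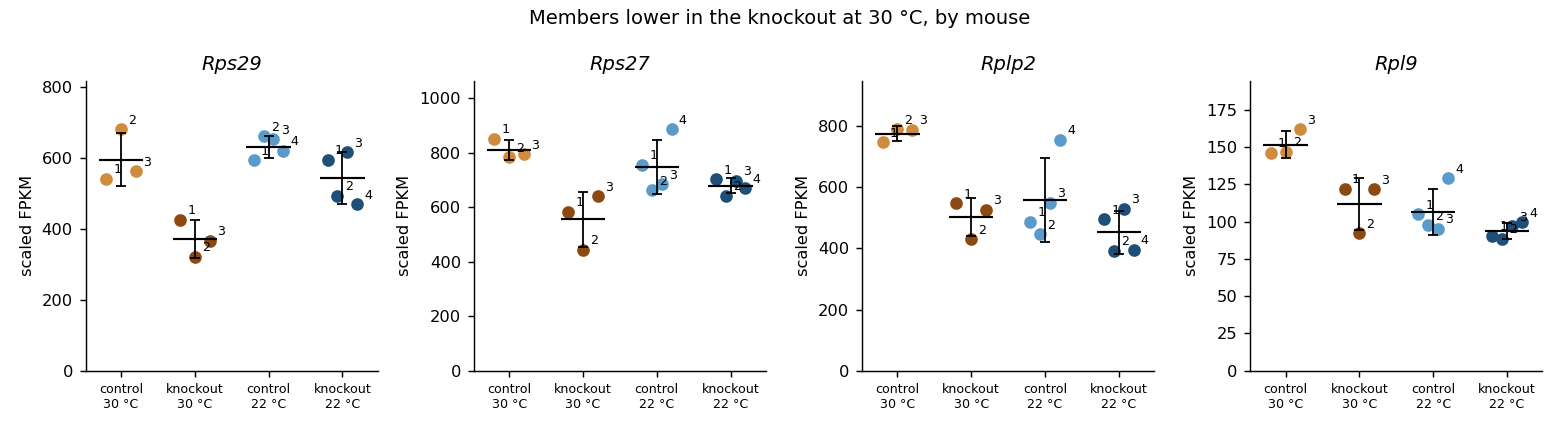
Scaled FPKM of the 4 members called lower in knockouts at 30 °C, in each mouse by group; points are mice with replicate numbers, lines are means and bars are SD. At 30 °C all 3 knockouts lie below all 3 controls in each panel, while at 22 °C the genotypes overlap.

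The test of whether the knockout effect differed between temperatures called 0 of 81 members with limma, beside 0% of all genes. At an unadjusted p under 0.05 there were 3, namely Rpl23a (-0.67), Rps29 (0.45) and Rps27 (0.43), with limma adjusted p of 0.294, 0.334 and 0.371, beside 12.95% of all genes at that unadjusted p. The median difference over the members was 0.02. A knockout effect confined to 30 °C was therefore not shown for Rps29, whose log2 fold change at 22 °C was -0.23 (limma adjusted p = 0.412).

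Few listed genes around the ribosome were called for genotype at 22 °C, where 1.97% of all genes were called in either direction. Among 61 biogenesis and RNA polymerase I genes 0 were called higher, but 55 values lay above 0. The median log2 fold change was 0.19, beside 0.00 over all genes tested. At an unadjusted p under 0.05, 18 were higher and 1 lower with limma, beside 15.8% of all genes in either direction. How these values depend on the scaling or on control replicate 4 is not given, since the alternatives were summarised for members only. Of 38 initiation factors 1 was called higher, Eif3c, a core subunit of eIF3 (0.76, limma adjusted p = 0.0153). The stress-response factors Ddit3 (2.17) and Atf4 (1.37) were the 2 of 32 regulators called higher, and Nop10, a protein of the box H/ACA particle that modifies ribosomal RNA, was the 1 biogenesis gene called lower (-0.44). At 30 °C Nop10 fell by 0.92 (limma adjusted p = 0.000319) and Myc rose by 1.64. Of the 32 regulators, 7 were higher at 30 °C, beside 8.82% of all genes, and 1 was lower, beside 5.28%. Mitochondrial ribosomal proteins were lower in 5 of 79 cases at 22 °C (median -0.18), with 0 higher. At 30 °C they were lower in 30 of 79 (median -0.31), beside 5.28% of all genes, with 0 higher. Mrpl11, Mrpl18, Mrpl51 and Mrps21 were called at both temperatures.

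Paralogs were followed as the level of the paralog in percent of its partner, over 6 pairs. Each comparison was tested on log2 ratios by an exact two-sided permutation test, adjusted over the 6 pairs, and 0 passed. The smallest p that 4 against 3 animals allow is 0.0286, which passes the adjustment only if most of the 6 pairs reach it. For genotype at 30 °C, with 3 against 3 animals, the smallest p is 0.1, so no pair could pass. That 0 passed therefore does not show that the ratios were equal. Rps27l stood at 25.3 ± 2.38% of Rps27 in 22 °C controls (SD, n = 4) and 17.7 ± 2.34% in 30 °C controls (SD, n = 3; exact permutation p = 0.0286, adjusted 0.0571), but at 20.8 ± 2.05% and 20.7 ± 1.54% in knockouts (exact permutation p = 0.971). Rpl36al, an autosomal copy of Rpl36a, stood at 54.0 ± 2.81% and 39.8 ± 2.10% in controls (exact permutation p = 0.0286, adjusted 0.0571). Rpl22l1 stood at 82.0 ± 6.17% and 66.2 ± 7.71% of Rpl22 (exact permutation p = 0.0286, adjusted 0.0571). Rpl39l stood at 2.18 ± 0.347% of Rpl39 in 22 °C knockouts and 0.579 ± 0.105% in 30 °C knockouts (exact permutation p = 0.0286, adjusted 0.0857). Rpl7l1 stood at 17.4 ± 1.56% and 13.8 ± 1.07% of Rpl7 in the same groups (exact permutation p = 0.0286, adjusted 0.0857). In each comparison with a p of 0.0286 the ranges of the 2 groups did not meet. In the genotype not given for a pair the difference had the same sign but a larger p. It was 0.514 for Rpl22l1 and 0.114 for Rpl36al in knockouts, and 0.143 for Rpl39l and 0.0857 for Rpl7l1 in controls (exact permutation tests).

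Rpl3l, the paralog of striated muscle, was read beside the skeletal muscle markers. It was at 4.75, 2.97, 51.1 and 28.0 scaled FPKM in 22 °C controls, 5.14, 8.76, 6.80 and 11.2 in 22 °C knockouts, 79.3, 33.8 and 1.05 in 30 °C controls and 57.7, 14.1 and 44.0 in 30 °C knockouts. The summed scaled FPKM of 12 skeletal muscle markers in 30 °C controls was 16110, 5540 and 41.7 in the same order of animals, and in 22 °C controls 703, 545, 8269 and 4774. In knockouts it was 665, 1391, 1240 and 1716 at 22 °C and 10290, 2461 and 7931 at 30 °C. Within each group the animals had the same order on both measures. In knockouts every 22 °C animal lay below every 30 °C animal for Rpl3l (log2 fold change -1.98, limma adjusted p = 0.149) and for 10 of the 12 muscle markers, whereas in the other 3 comparisons the groups overlapped for Rpl3l and all 12 markers. None of the 12 was called in any of the 4 comparisons, and neither was Rpl3l. The part of muscle tissue in the Rpl3l values was not tested.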

How the data were processed

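Total RNA of brown adipose tissue was sequenced in 14 mice. The authors deposited 1 table of FPKM per gene and animal (genome build mm9, per the submitters' processing notes). Aligner, counting tool, annotation and use of strand are not given in the sources used here. Groups came from the labels' genotype and temperature. Reads per library were recovered from FPKM steps of genes with 1 transcript (90.9 to 92.6% of the values tested were whole within 0.05 reads), and depth limits cover counting error only.

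Genes with at least 1 FPKM in at least 3 libraries were kept (13079). Libraries were scaled by the median ratio to the geometric mean over 10049 nuclear genes (factors 0.822 to 1.20). Values were log2(scaled FPKM + 1). limma 3.58.1 (R 4.3.3; lmFit, eBayes with trend) fitted 1 mean per group to all 14 libraries, with Benjamini-Hochberg adjustment over all genes. Symbols, biotype, length and GC content came from GENCODE M21, by gene identifier (34490 of 35275 matched), and start sequences from RefSeq GRCm38.p6. On simulated reads, knockout against control at 22 °C recovered 99.5% of 200 changed genes among 12555, 0 in the wrong direction, with 4.78% false calls. Recovery was 98.8% for genes changed by 1 on the log2 scale, the smallest size used. Recovery of smaller differences, such as most of those of the members, was not tested. Tables were made with pandas 2.3.3 under Python 3.11.15, and plots with matplotlib 3.10.9.

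Members and lists were chosen with earlier results of these data known. Named members were, per comparison and direction, the 5 called with the smallest p (all if fewer), the 5 highest and 5 lowest by mean FPKM, paralog pairs, 8 PCR reference genes, 6 with roles outside the ribosome, the stalk proteins, X-linked members and members that failed the filter. Listed genes were named among those called, up to 4 per list and comparison. Rps10, Rps15, Rps16, Rps28, Rpl28 and Rpl15, Xist, Ddx3y, Rps3a1 and the short members were chosen after their values were seen. Alternatives varied the pseudocount, filter, scaling, groups fitted, variance model, sample weights, GC and length correction, pseudogene reads and animals included. Some single genes are not reported here.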

Additional observations from a re-analysis of the deposited data

Results flagged for a closer look

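In groups of 4 animals, 3 values stood apart by the gap to the nearest animal over the group's range, a gap above Dixon's 95% critical value. Rpl32 was at 477 scaled FPKM in control replicate 4 at 22 °C, against 314 to 338 in the other 3 (gap 0.850 of the range). Rps4x was at 327 scaled FPKM in the same library, against 225 to 242 (gap 0.834). Rpl7 was at 158 scaled FPKM in knockout replicate 4 at 22 °C, against 145 to 147 (gap 0.847). In all 78 groups were examined, and chance flags about 1 in 20, so about as many or more would be expected from chance. The 2 values of control replicate 4 come from the library whose members stood above their group.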

How the results depend on the processing

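No paired analysis was possible because animals carry individual identifiers and no replicate numbers shared between groups. For knockout against control at 22 °C, 4 members were called with FPKM as deposited (median 0.21) and 1 with arrayWeights; leaving out 1 animal gave 0 to 1. At 30 °C, 1 was called without the filter, 2 with the same nuclear total, 1 with the same nuclear total without the members, 2 with the compared groups only, 10 (2 higher, 8 lower) with arrayWeights, 7 without the controls with R identifiers and 9 without the 2 libraries that stood apart (4 higher and 5 lower, an alternative chosen after the data were seen), beside 0 higher and 4 lower with all animals. Leaving out 1 animal gave 1 to 7, the 7 without control replicate 4 at 22 °C, and the median was 0.17 with FPKM as deposited and 0.10 with quantile normalization. For temperature in controls, GC and length correction gave 30, and leaving out 1 animal 28 to 65. For temperature in knockouts, the median was -0.21 with that correction, and 64 were called without the 2 libraries. Rps29 in controls was -0.0126 with FPKM as deposited. The median over all genes moved to 0.24 (22 °C) and 0.31 (30 °C) for genotype and to -0.13 and -0.16 for temperature with FPKM as deposited, and to 0.12 and 0.19 for genotype with the same nuclear total. Causes of these changes were not tested, including the smaller number of animals in the fits that left some out. In all 28 alternatives 0 members were called for the difference between knockout effects, with medians of -0.12 to 0.16. Temperature kept its direction in all 28 for both genotypes, with medians of -0.58 to -0.30 in controls and -0.52 to -0.21 in knockouts. Counts called in the alternatives are of members only, with no share of all genes beside them.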
